A study of Homo sapiens with 2 samples.

Results

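Galectins are lectins that bind beta-galactosides, and N-acetyllactosamine, a galactose joined to N-acetylglucosamine, is their usual ligand on cell surface glycoproteins. The B3GNT enzymes add N-acetylglucosamine to a terminal galactose, and galactosyltransferases such as B4GALT1 add the next galactose, so that both kinds of enzyme take turns in building long chains of lactosamine. In tumours such chains on N-glycans and on glycolipids give galectins their binding sites. The genes described here are 4 galectins (LGALS1, LGALS3, LGALS8 and LGALS9), the galectin ligand LGALS3BP, and 4 lactosamine extension enzymes (B3GNT2, B3GNT3, B3GNT5 and B3GNT9). They are picked by symbol alone, a rule that uses no measured value but was drawn up with earlier results of these data known, and are 9 of the 49627 genes listed in both libraries.

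RNA-seq was performed on MDA-MB-231 cells, a line from a human triple-negative breast cancer grown in L-15 medium with serum, with 1 library from cells with RBMS1 knockdown and 1 library from control cells. RBMS1 is an RNA binding protein that recognises AU-rich RNA. In the study such lines were made by lentiviral infection with shRNA in the pLKO.1 plasmid and puromycin selection, and the empty pLKO.1 plasmid served as the control, so both lines carry the vector and the selection. The empty plasmid holds no shRNA, so the libraries also differ in whether an shRNA is present. The labels do not name the shRNA of the knockdown library. With 1 library per group there is no replicate check, no test was made between the groups, and the spread between cultures is unknown.

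The values are FPKM, that is, fragments counted per kilobase of a transcript and divided by the fragments of its library, and the range given after a value is the interval that Cufflinks writes for uncertainty within the library. RBMS1, the gene targeted by the shRNA, had an FPKM of 3.76 in knockdown cells and 24.1 in control cells. The 4 marker genes of the line (VIM, CD44, KRT8 and KRT18) lay between 122 and 563 FPKM, the receptor genes ESR1 and PGR were at most 0.0996 FPKM, and ERBB2 was at 7.496 and 7.005 FPKM. Of the epithelial genes low in this line, CDH1 was at most 0.0952 FPKM and EPCAM was at 1.93 FPKM in knockdown cells against 3.66 in control cells (log2 ratio −0.67), without overlap of the intervals. Of 12 markers of T cells, B cells, myeloid cells, endothelium and fibroblasts, 5 were listed at 0 in both libraries, and the summed FPKM of all 12 was 1.56 in knockdown cells and 1.84 in control cells. The median coverage per FPKM was 12.3 in knockdown cells and 11.3 in control cells. The depth in reads is unknown.

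For 2 galectin genes, the transcript that carries the signal differs from a listed alternative at the splice junction printed here, whether or not it differs elsewhere, and these junctions are shown because they bear on which protein the transcript can encode. Galectin-8 and galectin-9 each have a pair of carbohydrate recognition domains joined by a linker peptide. The sequences are from GENCODE 29 on GRCh38, plus strand, and run 5′ to 3′ over the last 15 bases of the upstream exon in lower case and the first 15 bases of the downstream exon in capitals. In LGALS8 the upstream exon is chr1:236542761-236542787, the linker exon of 126 bases is chr1:236542915-236543040, and the exon used when it is skipped is chr1:236543560-236543648.
LGALS8 ENST00000450372, into the linker exon: ggcacgccccagcttCCTAGTAATAGAGGA
LGALS8 ENST00000341872, linker exon skipped: ggcacgccccagcttAGGCTGCCATTCGCT
In LGALS9 the upstream exon is chr17:27638263-27638354. The coding transcript goes on into an exon of 202 bases at chr17:27640572-27640773, and the transcript annotated for nonsense-mediated decay enters the same exon 71 bases further on, at chr17:27640643-27640773.
LGALS9 ENST00000467111, short form of the exon: ctccagtggaaccagATGGAGGGTACGTGG
LGALS9 ENST00000302228, full exon: ctccagtggaaccagGTTTGCTGTGAACTT

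The order of the levels was nearly the same in both libraries. LGALS1 was highest, followed by LGALS3BP, LGALS3, B3GNT5, B3GNT2, LGALS8 and B3GNT9, while LGALS9 and B3GNT3 were lowest. The within-library intervals of neighbours in this order overlapped for B3GNT5 and B3GNT2 and for B3GNT2 and LGALS8, in each library. They also overlapped for B3GNT9 and LGALS9 in knockdown cells and for B3GNT3 and LGALS9 in control cells. FPKM is scaled to transcript length, so the levels can be set side by side between genes. The plot of the levels gives all 9 genes beside B4GALT1.

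**Figure D1:**
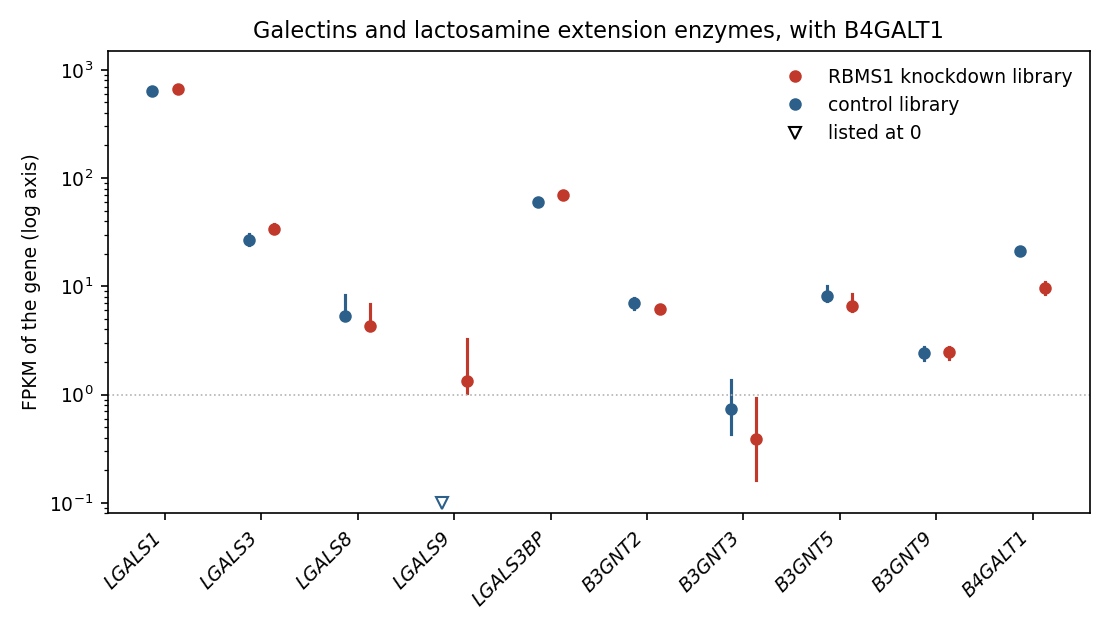
FPKM of the 9 genes and of B4GALT1 on a log axis, blue for the control library and red for the knockdown library, 1 library each. Lines are the within-library Cufflinks intervals, cut at the foot of the axis, the open triangle marks a gene listed at 0 and stands for no value, and the dotted line is at 1 FPKM. LGALS1 lies at 668 and 634 FPKM, whereas the 4 B3GNT genes lie below 10 FPKM.

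Of the 9 genes, 7 reached a mean FPKM of 1 and entered the counts, and LGALS9 and B3GNT3 were below it. No gene among the 7 was 2-fold lower or 2-fold higher in knockdown cells, where 2.8% of the 11186 genes with such a mean were 2-fold lower and 2.96% were 2-fold higher, 5.76% in all. Among genes above 0 in both libraries, 3.12% differed by 2-fold. The log2 ratio of knockdown over control, computed with 1 FPKM added to both values, was below 0 for 3 and above 0 for 4 of the 7 genes. Its median was 0.02 over the 7 genes and 0.02 over all genes. The 7 ratios lay between −0.27 and 0.33. By comparison, B4GALT1 had an FPKM of 9.70 in knockdown cells and 21.4 in control cells (log2 ratio −1.07, or −1.89 with reference transcripts alone).

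**Figure D2:**
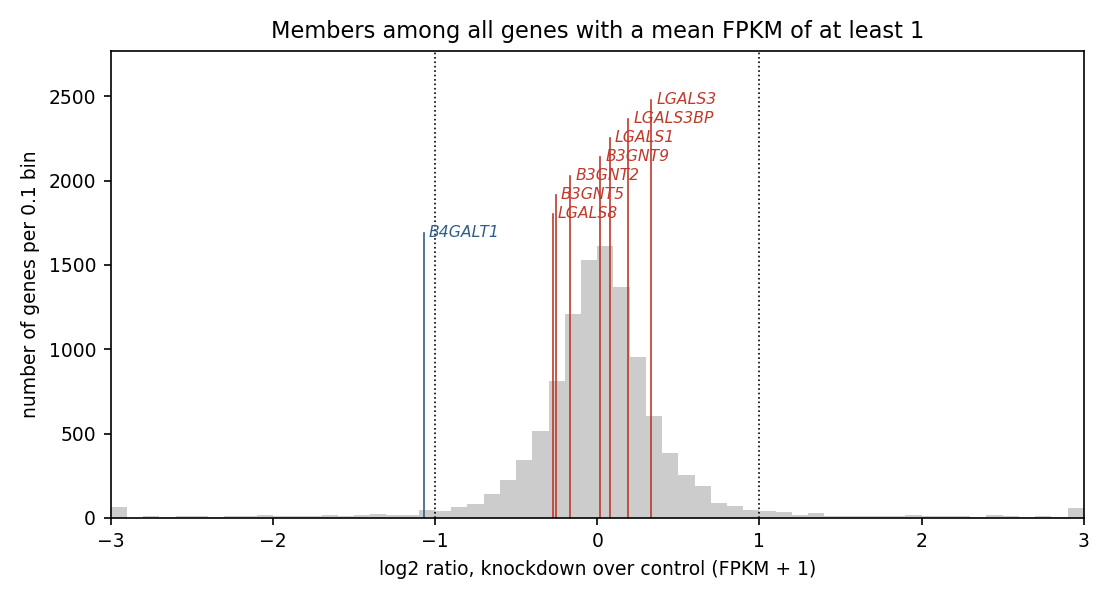
Histogram of the log2 ratio, knockdown over control, of 11186 genes in bins of 0.1, with ratios beyond 3 in either direction placed in the end bins. Red lines mark the 7 genes that reached a mean FPKM of 1, the blue line marks B4GALT1, and dotted lines mark a 2-fold difference. All 7 red lines stand within the bulk of the genes, between −0.27 and 0.33.

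LGALS1 (chr22:37675608-37679806, plus strand) encodes galectin-1, a small lectin with a single recognition domain that forms dimers. Its FPKM was 668 (637 to 700) in knockdown cells and 634 (604 to 665) in control cells. These intervals overlapped, the log2 ratio was 0.08, and 78.8% of all genes had a ratio at least as far from 0. LGALS1 supplied 94.4% of the summed FPKM of the 4 galectins in knockdown cells and 95.2% in control cells. Only 0.101% and 0.117% of the listed genes had a higher FPKM than LGALS1 in these libraries. Of its 7 listed transcripts only ENST00000215909 was above 0, so the gene value rests on a single transcript.

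LGALS3 (chr14:55124110-55145413, plus strand) encodes galectin-3, which joins a recognition domain to a flexible N-terminal tail through which it forms oligomers. Its FPKM was 33.9 (31.1 to 37.9) in knockdown cells and 26.7 (24.1 to 30.5) in control cells. The knockdown value was higher, with a log2 ratio of 0.33, and these intervals did not overlap. LGALS3 was the only 1 of the 7 genes without overlap, whereas 24.7% of all genes had none, 13.3% with the knockdown value higher. Both of its transcripts above 0 were higher in knockdown cells. The coding transcript ENST00000254301 was at 28.0 FPKM (25.9 to 30.1) against 21.9 (20.005 to 23.8), and a transcript with a retained intron, ENST00000556438, was at 5.91 against 4.82. The coding transcript made up 82.6% of the gene in knockdown cells and 81.9% in control cells, so the composition of the gene was nearly equal. The level of LGALS1 over that of LGALS3 was 19.7 in knockdown cells and 23.7 in control cells.

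LGALS8 (chr1:236518000-236552981, plus strand) encodes galectin-8, which inside cells binds the glycans exposed on damaged vesicles and recruits the autophagy receptor CALCOCO2. Its FPKM was 4.26 in knockdown cells and 5.37 in control cells (log2 ratio −0.27), and 36.2% of all genes had a ratio at least as far from 0. All of the signal was given to 1 of 28 listed transcripts, ENST00000450372, which enters the linker exon as printed above and has a coding sequence of 1077 bases. Its intervals, 3.95 to 4.58 and 4.997 to 5.74 FPKM, did not overlap. The gene intervals, which add the upper limits of transcripts listed at 0, did overlap, from 3.95 to 6.88 and from 4.997 to 8.23. The transcript that skips the linker exon, ENST00000341872, with a coding sequence of 951 bases, was listed at 0 in both libraries. HEATR1 on the opposite strand covers the 3′ end of LGALS8 at chr1:236549005-236552981 and had an FPKM of 9.83 and 9.91. The strand setting of the libraries is not given in the sources used here, so reads of both genes in the overlap cannot be told apart.

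LGALS9 (chr17:27629798-27649560, plus strand) encodes galectin-9, a ligand of the T cell receptor TIM-3. It had an FPKM of 1.35 in knockdown cells and was listed at 0 in control cells, so no fold is given. The value in knockdown cells belonged wholly to ENST00000467111, with an interval of 1.03 to 1.67 FPKM, and in control cells the upper limit of this transcript was 0.0392 FPKM. The gene intervals, which add the upper limits of all 16 listed transcripts, were 1.03 to 3.26 and 0 to 1.499 FPKM and overlapped. It is the transcript with the shortened exon printed above, annotated for nonsense-mediated decay with a coding sequence of 225 bases. The coding transcripts ENST00000302228 and ENST00000395473, with coding sequences of 969 and 1065 bases, were listed at 0 in both libraries. The longer of them holds a linker exon of 96 bases at chr17:27643525-27643620. LGALS9B and LGALS9C, near-identical copies that can share reads with LGALS9, had FPKM of 0.0687 and 0.232 in knockdown cells and 0.101 and 0.124 in control cells. HAVCR2, which encodes TIM-3, was listed at 0 in both libraries.

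LGALS3BP (chr17:78971238-78980109, minus strand) encodes a secreted, heavily glycosylated protein that galectin-3 binds. Its FPKM was 69.3 (65.2 to 75.3) in knockdown cells and 60.5 (57.5 to 65.5) in control cells (log2 ratio 0.19), and 50.4% of all genes had a ratio at least as far from 0. The direction depended on which transcripts were summed. The coding transcript ENST00000262776 was lower in knockdown cells, 50.5 FPKM (47.8 to 53.1) against 60.5 (57.5 to 63.5, log2 ratio −0.26) without overlap of the intervals. An assembled transcript listed in knockdown cells only, at 18.8 FPKM (17.3 to 20.3), made up the other 27.1% of the gene. It shared 4 of the 5 introns of the coding transcript and began at another first exon, of 18 bases at chr17:78977306-78977323. No assembled transcript of the control library was given to LGALS3BP.

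Among the extension enzymes, B3GNT5 and B3GNT2 had the highest levels. B3GNT2 (chr2:62196113-62224731, plus strand), the main enzyme of polylactosamine on N-glycans, had an FPKM of 6.18 (5.64 to 6.74) in knockdown cells and 7.05 (6.24 to 7.89) in control cells (log2 ratio −0.17) with overlapping intervals. Its coding transcript ENST00000301998 was at 6.18 and 6.15 FPKM (log2 ratio 0.01). The gene difference came from an assembled transcript of the control library at 0.901 FPKM, which made up 12.8% of the gene there. Its last exon had 51 bases and lay at chr2:62272457-62272507, beyond the annotated end of B3GNT2.

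B3GNT5 (chr3:183253244-183298504, plus strand) makes lactotriaosylceramide, the start of the lacto-series glycolipids. Its FPKM was 6.61 (5.89 to 8.41) in knockdown cells and 8.07 (7.29 to 10.0) in control cells. The log2 ratio was −0.25 and the intervals overlapped, and the ratio turned to 0.06 with reference transcripts alone and to 0.05 with an assembled transcript of 1.80 FPKM over its exons added. The coding transcript ENST00000326505 was at 5.20 FPKM (4.75 to 5.65) against 6.30 (5.79 to 6.81, log2 ratio −0.24) without overlap of the intervals. A shorter coding transcript, ENST00000460419, was at 1.41 FPKM in knockdown cells and listed at 0 in control cells. In the control library an assembled transcript at 1.77 FPKM had the same first exon of 439 bases, from chr3:183253795, and a longer last exon. The transcripts from this first exon made up 21.4% of the gene in knockdown cells and 21.9% in control cells. All of these annotated transcripts carry the same coding sequence of 1134 bases, so they differ outside of it.

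B3GNT3 (chr19:17794828-17813082, plus strand) extends core O-glycans and is described in the study as a glycosyltransferase of PD-L1. By qRT-PCR in MDA-MB-231 cells, the study reports its level as unaffected by RBMS1 depletion. It was the lowest of the 4 enzymes, with an FPKM of 0.385 (0.162 to 0.933) in knockdown cells and 0.729 (0.429 to 1.38) in control cells. The log2 ratio was −0.32 with 1 FPKM added, which understates a difference at such levels, and the intervals overlapped. In both libraries the signal was divided between the coding transcript ENST00000318683, at 0.221 and 0.457 FPKM, and an assembled transcript with another first exon, at 0.164 and 0.272 FPKM. The coverage of the coding transcript was 2.75 and 5.14 reads per base. The intervals of the coding transcript, 0.0989 to 0.342 and 0.283 to 0.630 FPKM, overlapped at their edges, and the value in each library lay outside the interval of the other.

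B3GNT9 (chr16:67148105-67151214, minus strand) had an FPKM of 2.46 (2.15 to 2.77) in knockdown cells and 2.41 (2.09 to 2.73) in control cells. Its log2 ratio was 0.02, and 94.2% of all genes had a ratio at least as far from 0. The single listed transcript, ENST00000449549, carried all of it. Assembled transcripts of C16orf70 on the opposite strand cover chr16:67148105-67148539 within B3GNT9, at 2.83 FPKM in knockdown cells and at 2.06 and 0.937 FPKM in control cells.

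The 4 extension enzymes summed to 15.6 FPKM in knockdown cells and 18.3 FPKM in control cells. With reference transcripts alone the sums were 15.5 and 15.3 FPKM, so the direction depended on whether assembled transcripts were added. The 2 ways are not like for like in B3GNT5. Reference transcripts keep ENST00000460419 of knockdown cells, at 1.41 FPKM. They leave out the assembled transcript of control cells with the same first exon, at 1.77 FPKM. The main reference transcripts of B3GNT5 and B3GNT3 were lower in knockdown cells, and those of B3GNT2 and B3GNT9 were nearly equal. B4GALT1, which supplies the galactose that these enzymes extend, was at 0.620 of the sum of 15.6 FPKM in knockdown cells. In control cells it was at 1.17 of the sum of 18.3 FPKM. With reference transcripts alone these were 0.327 and 1.40. That sum leaves out 2 assembled B4GALT1 transcripts of the knockdown library, at 1.75 and 2.90 FPKM, as well as the assembled transcripts of the enzymes. The sum of the 4 galectins was 707 FPKM in knockdown cells and 666 FPKM in control cells. In RNA from whole cultures, fewer cells that express a gene and less RNA per cell cannot be told apart.

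At the level of the dominant transcript, 4 of 7 genes had intervals that did not overlap, LGALS3 with the knockdown value higher and LGALS8, LGALS3BP and B3GNT5 with it lower. This compares with 49.4% of 10065 dominant transcripts with a mean FPKM of at least 1. Single transcripts have narrower intervals than summed genes, and the intervals hold no variation between cultures.

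The letters ATATA were counted in the 3′ untranslated region of the dominant transcript, on the sense strand and with overlapping matches counted, because RBMS1 recognises AU-rich RNA. Of 9590 genes, 57.0% held ATATA, and the median length of the region was 999 bases. LGALS1, LGALS3 and LGALS3BP, the 3 most abundant of the 9 genes, held none in regions of 57, 132 and 338 bases, and of genes with regions of like length 11.0%, 16.2% and 28.5% held it. LGALS8 held 5 in 4820 bases, where genes of like length had a median of 7. B3GNT2, B3GNT3 and B3GNT9 held 1 each, equal to their like-length medians of 1. B3GNT5 held 7 in 2456 bases, where genes of like length had a median of 3, while B4GALT1 held 2 in 2817 bases against a like-length median of 4. The LGALS9 transcript, annotated for decay, held none in 1232 bases, and 64.8% of genes of like length held it. The first match of each gene is shown with 10 bases on either side, in the sense direction from GENCODE 29 on GRCh38, with the letters searched in capitals.
LGALS8, chr1:236548509-236548533, plus strand: aagagctaggATATAtacttggtga
B3GNT2, chr2:62224423-62224447, plus strand: attttcttaaATATAttttatgtaa
B3GNT3, chr19:17813048-17813072, plus strand: gccttggggaATATAaaattttgtg
B3GNT5, chr3:183271202-183271226, plus strand: gtaatgccacATATAtacttgaggt
B3GNT9, chr16:67148275-67148299, minus strand: cccaggaaccATATAggagcctgag
These matches begin 358, 1019, 936, 277 and 988 bases after the stop codon of LGALS8, B3GNT2, B3GNT3, B3GNT5 and B3GNT9. A match is a run of letters in the annotation and no binding was measured here. The dominant transcripts in which the letters were counted had log2 ratios of −0.27, 0.01, −0.26, −0.24 and 0.02 in the same order. Those of LGALS1, LGALS3 and LGALS3BP, without a match, were at 0.08, 0.34 and −0.26.

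The genes around lactosamine were then described by lists, with the same filter of a mean FPKM of at least 1. Of 12 other galectins, only LGALSL entered, at 1.14 and 1.09 FPKM in the knockdown and control library, and 7 were listed at 0 in both. Of 6 other genes of the B3GNT group, B4GAT1, which today is known as a glucuronyltransferase of dystroglycan, was at 6.36 and 3.95 FPKM (log2 ratio 0.57) without overlap of the intervals. B3GNTL1 was at 2.99 FPKM in knockdown cells and listed at 0 in control cells. The other 4 genes of that list did not enter, and B3GNT8 had the highest value among them, 0.378 and 1.13 FPKM.

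Of 13 galactosyl partners and branching enzymes, 11 entered, 9 with a lower and 2 with a higher value in knockdown cells, and their median log2 ratio was −0.22 beside 0.02 over all genes. B4GALT1 was the only 2-fold difference, a call that was lost with a pseudocount of 5 FPKM (log2 ratio −0.85). Named after their values were seen, MGAT5 and MGAT4B, which start the N-glycan branches that carry lactosamine chains, were the others without overlap of the intervals, which makes 3 of 11 genes beside 24.7% of all genes. MGAT5 was at 5.20 and 7.52 FPKM in the knockdown and control library, and MGAT4B was at 28.9 and 37.4 FPKM. MGAT4A, also named after its values were seen, was at 0.838 and 1.77 FPKM with overlapping intervals. Its knockdown value was 47.4% of control, but with 1 FPKM added the log2 ratio was −0.59, short of 2-fold. GCNT1, which branches O-glycans, had the largest increase of the list, at 7.49 and 6.94 FPKM (log2 ratio 0.10).

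Of 13 capping and sulfation enzymes, 5 entered, 2 lower and 3 higher, with a median log2 ratio of 0.03. The fucosyltransferase gene FUT11 was listed at 0 in knockdown cells and had 5.94 FPKM in control cells. ST3GAL3, a sialyltransferase, was at 8.70 and 5.16 FPKM (log2 ratio 0.66) with overlapping intervals. All 12 genes of sugar nucleotide supply entered, 7 lower and 5 higher, none at 2-fold, with a median of −0.07. GALT of galactose metabolism was at 8.90 and 5.84 FPKM (log2 ratio 0.53), and PGM3, of the pathway to UDP-N-acetylglucosamine, was at 10.1 and 12.5 FPKM (log2 ratio −0.28). The intervals of both overlapped. Intervals did not overlap for 2 of these 12 genes and for 2 of the 5 capping and sulfation enzymes, beside 24.7% of all genes. Named after their values were seen, those of the supply list were SLC35D2 at 8.24 and 6.19 FPKM and GFPT1 at 17.7 and 14.0 FPKM. Among the capping and sulfation enzymes they were FUT11 and CHST2, the latter at 3.12 and 2.05 FPKM. SLC35D2, GFPT1 and CHST2 were higher in knockdown cells.

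Of 18 glycoproteins that galectins bind or that carry lactosamine, 16 entered, 9 lower and 7 higher, none at 2-fold, with a median log2 ratio of −0.11. ITGB4, the integrin beta-4 chain, had the largest increase, 19.7 and 12.0 FPKM in the knockdown and control library (log2 ratio 0.67). CD44, the hyaluronan receptor, had the largest decrease, 154 and 204 FPKM (log2 ratio −0.41). Intervals did not overlap for 7 of the 16, where 24.7% of all genes had none in common. Besides ITGB4 and CD44 these were FN1 and SLC2A1, higher in knockdown cells, and ITGA5, EGFR and TFRC, lower, all named after their values were seen. CD274, which encodes PD-L1, was at 6.18 and 7.32 FPKM (log2 ratio −0.21) with overlapping intervals.

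All 4 genes of the damaged-vesicle response entered, 2 lower and 2 higher. CALCOCO2, the partner of galectin-8, was at 25.1 FPKM in knockdown cells and 27.3 in control cells. PDCD6IP, which encodes the ESCRT adaptor ALIX, was at 49.9 and 39.8 FPKM (log2 ratio 0.32) without overlap of the intervals. TRIM16, a ubiquitin ligase that works with galectin-3, was at 18.2 and 23.1 FPKM (log2 ratio −0.33) with overlapping intervals.

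The sign of the ratio depended on which transcripts were summed for LGALS3BP, B3GNT2 and B3GNT5. With reference transcripts alone, LGALS3BP had a log2 ratio of −0.26, B3GNT2 of 0.01 and B3GNT5 of 0.06, each of the opposite sign to the values above. By the same sum B4GALT1 was at −1.89 instead of −1.07, a larger move than that of any of the 9 genes. LGALS1, LGALS3, LGALS8 and B3GNT3 kept their sign under all 9 alternatives, and B3GNT9 was on the other side of 0 under 1 of them. The sign of LGALS9 could not change, since it was listed at 0 in control cells throughout.

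**Figure D3:**
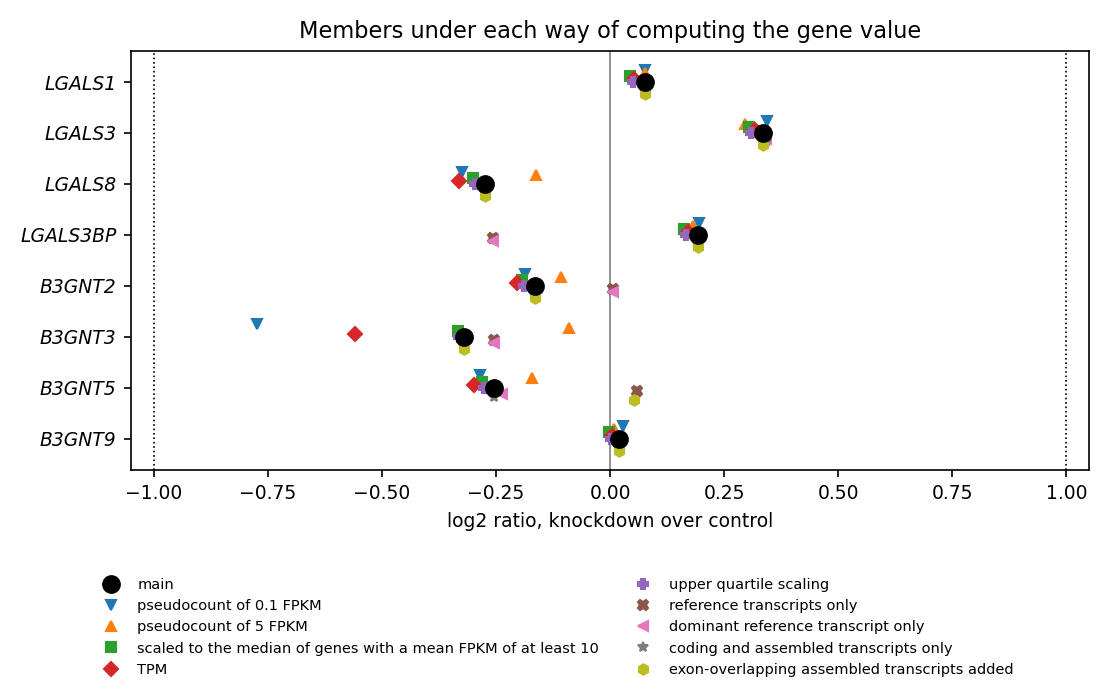
Log2 ratio of 8 of the 9 genes as reported (large black points) and under 9 alternative ways of computing it (small coloured symbols), with dotted lines at a 2-fold difference. LGALS9 is not drawn because it was listed at 0 in control cells. The symbols of LGALS3BP, B3GNT2 and B3GNT5 fall on both sides of 0, whereas those of LGALS3 stay between 0.30 and 0.34.

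The authors' table of their own comparison, which holds 7236 transcripts selected by p-value, was used only for its FPKM columns. It lists 6 transcripts of LGALS8, B3GNT2 and B3GNT5 and none of the other 6 genes. Of LGALS8, ENST00000454943 is given there at 1.10 FPKM in knockdown cells and 0 in control cells, and ENST00000481485 at 0 and 0.986 FPKM. The other 4 transcripts are at most 0.608 FPKM in either library. All 6 were listed at 0 in both per-library files, so the files divide the signal of these genes among transcripts in different ways.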

How the data were processed

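RNA-seq of MDA-MB-231 cells gave 1 library with RBMS1 knockdown and 1 control library, grouped by the labels. The authors deposited transcripts of each library with their FPKM and within-library interval from Cufflinks. The submitters' processing notes name Bowtie2 2.0.6, TopHat2 2.0.9, Cufflinks 2.1.1 and Cuffdiff 2.1.1. The genome build, annotation and strand setting are not given in the sources used here. Of the reference transcripts matched by Ensembl identifier to GENCODE 29 on GRCh38, 98.1% began at the annotated position. The authors also deposited a table of 7236 transcripts with FPKM, fold changes, p-values and q-values, of which only the FPKM columns were used.

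For each gene, FPKM values of reference transcripts were added to those of assembled transcripts with 1 or more of its introns and the same strand. This left 54.9% of the FPKM of the knockdown library and 60.3% of that of the control library without a gene. The log2 ratio was taken after adding 1 FPKM to both values. A gene with a mean FPKM of at least 1 entered the counts, and 2-fold means a log2 ratio that reaches 1 or −1. A gene listed at 0 may reflect a failed estimate and was given no fold. The summed intervals of transcripts are wider than a true gene interval. The depth in reads is unknown because the files hold no counts. The calculation was tested on simulated data. Python 3.11.15 with pandas 2.3.3 and numpy 2.4.6 was used.

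All 9 genes were named, with RBMS1, B4GALT1 and, of each list, the member with the largest decrease and increase and each 2-fold difference. Further genes named after their values were seen are marked in the text or serve as roles of the pathway (CALCOCO2, CD274, HAVCR2, B3GNT8 and the copies of LGALS9). The genes and lists were chosen with earlier results of these data known. Alternatives were pseudocounts of 0.1 and 5 FPKM, 3 scalings, 3 ways of summing transcripts, 3 filters and, chosen after seeing the data, the addition of assembled transcripts that overlap exons.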

Additional observations from a re-analysis of the deposited data

Results flagged for a closer look

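An assembled transcript of the knockdown library lay over the exons of B3GNT5 without sharing an intron with it, and so was outside the gene value. Its FPKM was 1.80 (1.52 to 2.08), it had a first exon of 63 bases, and 99.3% of its bases were in annotated exons of B3GNT5. The control library listed none like it. With it the gene was at 8.41 FPKM in the knockdown library against 8.07 in the control library, a log2 ratio of 0.05. Assembled transcripts of a single exon inside B3GNT5 numbered 7 in the knockdown library, from 0.810 to 1.85 FPKM, and 2 in the control library, at 1.15 and 1.73 FPKM.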

How the results depend on the processing

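B4GALT1 was lower in the knockdown library under all 9 alternatives, with a log2 ratio of −0.85 at a pseudocount of 5 FPKM, short of 2-fold. Only the 9 genes, B4GALT1, the medians of the 9 genes and of all genes and the 2-fold counts were recomputed. RBMS1, the list medians and all other genes of the lists, FUT11 and B3GNTL1 among them, were not. The fitted log2 ratio of LGALS9, against a control value listed at 0, was 3.86 with a pseudocount of 0.1 FPKM and 2.22 as TPM, and so is no measured fold. As TPM, or with no filter on low values, LGALS9 alone made a count of 1 gene 2-fold higher among the 9. For LGALS3BP, summing only reference transcripts or taking only the dominant one gave −0.26. The counts of all genes 2-fold lower and higher were 133 and 124 with a pseudocount of 5 FPKM, 671 and 662 as TPM, 507 and 553 for sums of reference transcripts, 477 and 500 for single dominant transcripts, 138 and 140 at a mean FPKM of at least 5, and 171 and 169 among genes above 0 in both libraries. The B3GNT5 ratio was 0.06 with reference transcripts only and 0.05 with exon-overlapping assembled transcripts added, an alternative chosen after seeing the data. Of the recomputed values, 130 stayed within the range set by the within-library intervals or within 1.5 times a count, and 20 moved beyond it. No paired analysis was possible because each group consists of a single library, and no replicate could be left out either.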
